A study of Rattus norvegicus with 6 samples.

Results

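The genes described here encode axon guidance ligands, their receptors and some of the proteins that act with them, in the choroid plexus of the lateral ventricles of the rat, the tissue that secretes cerebrospinal fluid. They were found by their names: 65 of the 29479 gene identifiers counted carry, in the authors' table of 10653 genes they had called between the ages, a name beginning with the letters of a semaphorin, plexin, neuropilin, ephrin, Eph receptor, Slit, Robo, netrin, Dcc or Unc5, Srgap, Dpysl, Flrt, Lrrc4 or Slitrk gene. Of these, 60 belong to the guidance families and 5 only share their letters (*Lrrc43*, *Lrrc46*, *Lrrc48*, *Lrrc49* and *Unc50*). The members were thus selected on the authors' calls of a difference between the ages in these same pools, and that difference is given below as a description with no p-value. Other members of these families are not analysed here, except 4 that the table lists under other names and that are described apart.

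RNA was sequenced from Sprague-Dawley rats at embryonic day 15 (E15) and from adults of 6 weeks. Each sample was a pool of both lateral ventricular plexuses of 10 untreated animals, and each age had 3 pools, called replicates 1 to 3, with 1 library each. The plexus was taken whole, so epithelium, stroma, blood vessels and blood cells entered each pool together, and fewer cells of a type cannot be told apart from less RNA per cell.

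Axon guidance proteins steer growing axons and migrating cells. Semaphorins bind plexins, with neuropilins as co-receptors for the secreted class 3 members, and ephrins anchored on one cell bind Eph receptor tyrosine kinases on the next. Netrins attract or repel through Dcc and Unc5 receptors, and Slits repel through Robo receptors. The same families act outside neurons, in the branching of vessels and in the sorting of cells at tissue borders.

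Values below are normalised read counts, the raw counts divided by each library's total and its TMM factor (a scaling that allows for the few genes that take much of a library), and they are listed in the order of replicates 1, 2 and 3. They are not scaled by transcript length, so they compare pools and not genes. A gene is said to be called where the quasi-likelihood test of edgeR over 16643 genes gave an adjusted p under 0.05, and errors of log2 fold changes are standard errors (SE, n = 3 pools an age). Where an age held 1 to 3 counts of a gene a ratio with its exact 95% interval is given, and where it held 0 the fold is a lower bound set by 3 counts over its pools. Both cover counting error only.

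The libraries held 17875089 to 19204440 counts. Choroid plexus epithelium was evident in all 6: its 8 named markers of 13 summed to 474738 to 568043 normalised counts at E15 and 4135815 to 5067540 in the adult. Most of both sums was *Ttr*, with means of 445733 at E15 and 3995209 in the adult. The single markers differed between the ages by 2.76-fold (*Aqp1*) to 45.1-fold (*Kl*). E15 replicate 1 stood apart, correlating with the other E15 libraries at 0.979 and 0.982 (Spearman correlation over genes), against 0.996 between those. The sources do not say whether replicates of an age came from separate litters or days.

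Most of the guidance genes were higher at E15. All 60 passed the filter on low counts, and 53 were called higher at E15, 6 were called higher in the adult and 1, *Sema6c*, was not called. Over all genes tested 64.0% were called, 34.7% higher at E15 and 29.3% higher in the adult, but the members had been drawn from called genes, so nothing is read from these shares. The median log2 fold change (E15 over adult) of the 60 genes was 3.51 (the same with *Sema5b*, at 0 in the adult, set to its lower bound), against 0.14 over all genes tested and 0.74 over the genes of the authors' table. A difference above 4-fold at E15 was fitted for 40 genes, above 16-fold for 23 and above 64-fold for 8, and above 4-fold in the adult for 3. The pools of the ages did not overlap for 58 of the 60 genes, and they did not overlap for 70.1% of all genes tested. The 2 exceptions were *Sema6c* and *Plxnb3*. With scaling by total counts in place of TMM factors the median of all genes was 0.95 and 81.0% of calls were higher at E15, against 54.2%, but no guidance gene changed direction. With 3 pools against 3 an exact rank test of a single gene, which was not run, cannot go below a two-sided p = 0.10.

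**Figure D1:**
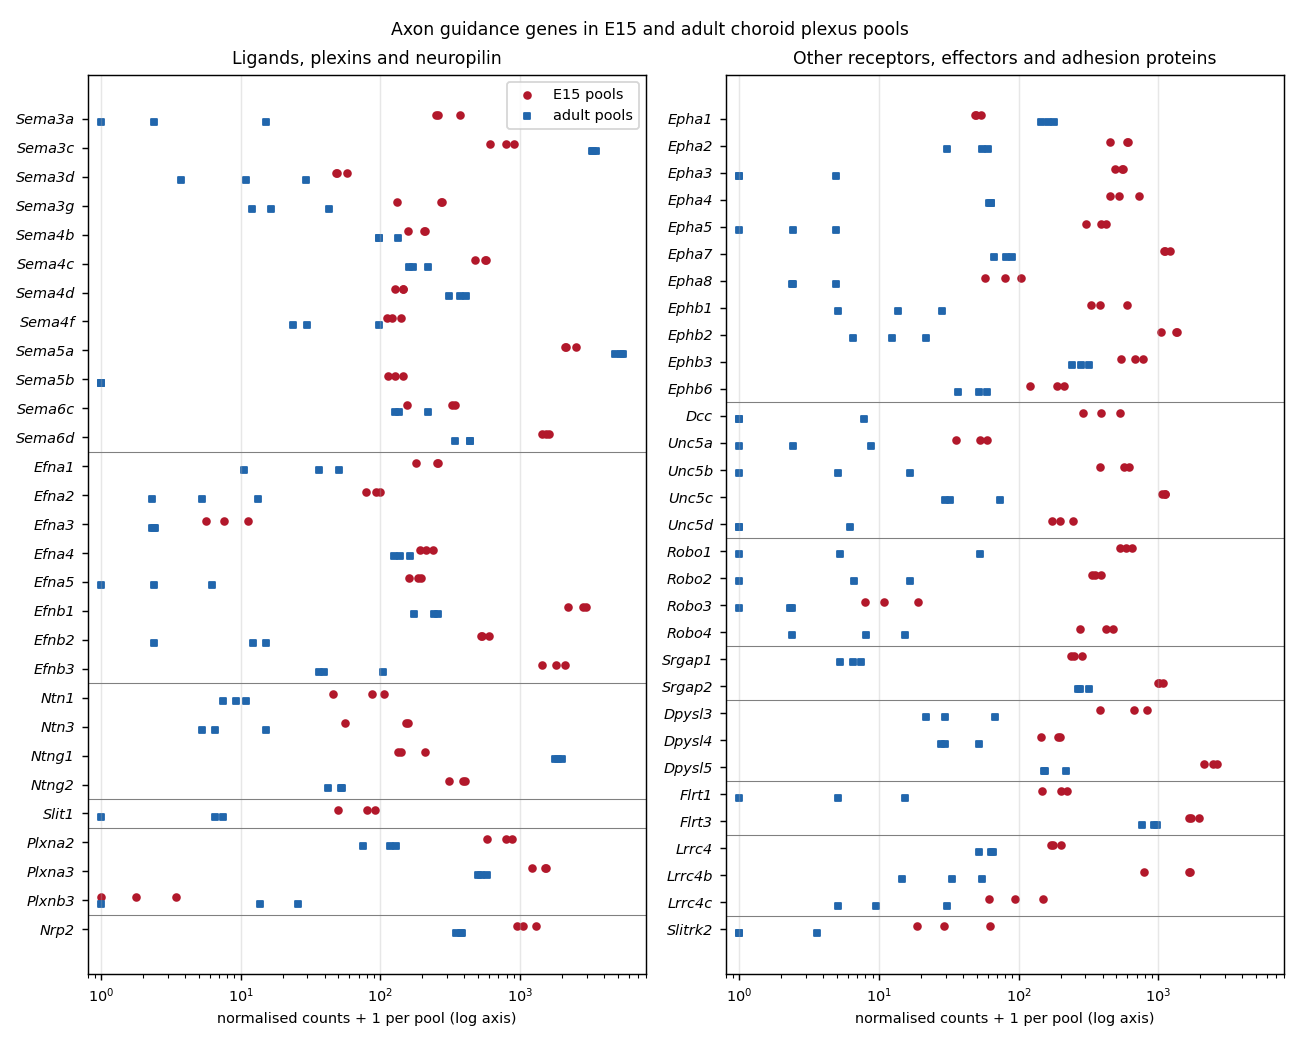
Normalised counts plus 1 of the 60 guidance genes in each pool, on a log axis, with circles for the 3 E15 pools and squares for the 3 adult pools; lines divide the families. The E15 pools lie to the right of the adult pools for most genes, while *Sema3c*, *Sema4d*, *Sema5a*, *Ntng1*, *Plxnb3* and *Epha1* lie the other way, and the adult squares of many low genes are spread widely.

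The 12 semaphorins divided between the ages. *Sema5b*, a transmembrane semaphorin, had 125, 112 and 144 normalised counts at E15 and 0 in each adult pool, at least 93.3-fold higher at E15. *Sema3a*, the secreted semaphorin first known for collapsing growth cones, had 370.0, 256 and 251 at E15 and 0, 14.3 and 1.37 in adult pools (52.9-fold). Every E15 pool was far above the adult pools, but adult replicate 2 supplied most of the adult counts, and without it the ratio was 417-fold with a 95% interval of 74.7 to 16494. *Sema3g*, made by arterial endothelium in other tissues, had 130.1, 269 and 276 at E15 compared with 15.6, 41.6 and 10.99 in adult plexus (9.77-fold, and 16.4-fold without adult replicate 2). *Sema6d*, a transmembrane semaphorin, had 1532, 1602 and 1432 at E15 against 438, 340.2 and 434 in the adult, a log2 fold change of 1.91 ± 0.13. The pools of *Sema6d* were close to each other within each age.

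Of the class 4 members, *Sema4c* (2.94-fold), *Sema4f* (2.50-fold) and *Sema4b* (1.74-fold) were higher at E15, as was the secreted *Sema3d* (3.61-fold). Adult replicate 2 held the most adult counts of *Sema4f* and *Sema3d*, and without it they differed by 4.67-fold and 7.70-fold. The call of *Sema4f* was lost, at log2 fold changes of 1.22, 1.34, 0.95 and 1.02, without E15 replicate 2, E15 replicate 3, adult replicate 1 and adult replicate 3 respectively. That of *Sema4b* was lost without E15 replicate 3 (0.74), and that of *Sema3d* without adult replicate 1 (1.64). *Sema6c* had 155, 343 and 323 at E15 and 135, 218 and 126 in adult pools. Its E15 replicate 1 lay inside the adult range and its log2 fold change was 0.77 ± 0.33. It was called without E15 replicate 1 (1.05) or adult replicate 2 (1.03). With all pools it was called by the Wald test of DESeq2 and the exact test of edgeR (both 0.77), with the replicate number as a block (0.74), with upper quartile factors (0.90) and under total counts with (1.58) or without (1.24) the 10 genes of highest mean count. It and *Efna4*, at 0.60 ± 0.19, were the guidance genes nearest to no difference, and genes just outside that table carry no name to set beside them.

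A group of 3 semaphorins was higher in the adult. *Sema5a*, a transmembrane semaphorin that can attract or repel axons, had 2511, 2102 and 2142 at E15 compared with 4801, 5312 and 5447 in adult plexus, 2.30-fold higher. *Sema3c*, a secreted semaphorin with known roles in vessel and heart development, had 900.4, 604 and 792 at E15 against 3271, 3479 and 3317 in the adult, 4.38-fold higher. *Sema4d*, the ligand of plexin B1, had 144, 126 and 144 at E15 and 371, 409 and 309 in adult pools, 2.63-fold higher. In all of these the lowest adult pool was above the highest E15 pool. With TMM scaling the 12 semaphorins summed to 9356 to 10253 normalised counts in the adult against 6377 to 6664 at E15, although 9 of the 12 genes were higher at E15. Most of the adult sum was *Sema5a* and *Sema3c*. The direction of the sum depended on the scaling, since the raw counts of the 12 genes summed higher at E15 in libraries of similar totals.

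All 8 ephrins were higher at E15. Of the transmembrane ephrins, *Efnb1* had 2218, 2974 and 2843 at E15 compared with 174, 242 and 258 in adult plexus (11.9-fold). *Efnb2*, the ephrin that marks arterial endothelium, had 597, 527 and 529 at E15 against 11.3, 14.3 and 1.37 in the adult (60.0-fold). *Efnb3*, known from the midline of the spinal cord, had 1439, 2095 and 1801 at E15 and 35.4, 103 and 38.5 in adult pools (29.9-fold, and 46.8-fold without adult replicate 2). No adult pool of these came near an E15 pool. Of the ephrins held by a lipid anchor, *Efna5* had 159, 193 and 185 at E15 compared with 0, 5.19 and 1.37 in adult plexus (75.1-fold). These 5 adult counts lay mostly in replicate 2, without which the ratio was 257-fold with a 95% interval of 46.0 to 10180.

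*Efna2* was 14.9-fold higher at E15, and 31.0-fold without adult replicate 3, where most of its adult counts lay. *Efna1*, *Efna3* and *Efna4* lie next to each other on chromosome 2 in the GRCr8 assembly and differed in size of change. *Efna1*, also known from endothelium, had 178, 253 and 259.6 at E15 against 49.6, 35.1 and 9.61 in the adult (7.31-fold). *Efna3* was near the detection limit at both ages, with 6.55, 4.62 and 10.2 at E15 against adult values of 1.42, 1.30 and 1.37, which gave a ratio of 5.23 (95% interval 1.61 to 26.9). *Efna4* had 192, 236 and 211 at E15 and 161, 125 and 137 in adult pools, a fold of 1.51. The call of *Efna3* was lost with all pools under the Wald test of DESeq2 (log2 fold change of 2.38), with no filter on low counts (2.27) and with the replicate number as a block (2.24), and it was lost on leaving out any library other than E15 replicate 1 (1.93 to 2.51). The call of *Efna4* was lost without E15 replicates 2 (0.51) or 3 (0.60) and without adult replicates 2 (0.48) or 3 (0.55), and with the replicate number as a block (0.60).

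Netrins and netrin-Gs went both ways. *Ntn1*, the secreted netrin of the floor plate, had 45.0, 86.2 and 105 at E15 and 9.91, 6.49 and 8.24 in adult pools (9.50-fold), and *Ntn3*, another secreted netrin, had 54.8, 156 and 151 at E15 against 4.25, 14.3 and 5.49 in the adult (14.7-fold, 23.5-fold without adult replicate 2). In both genes E15 replicate 1 was the lowest E15 pool. The netrin-Gs are tethered to the membrane and bind some proteins of the Lrrc4 family rather than Dcc. *Ntng1* had 207, 132 and 139.6 at E15 compared with 1866, 1778 and 1989 in adult plexus, 11.8-fold higher in the adult with a log2 fold change of -3.56 ± 0.18. *Ntng2* went the other way, with 311, 387 and 405 at E15 against 51.0, 51.9 and 41.2 in the adult (7.63-fold higher at E15). In neither gene did the pools of the ages overlap. The one Slit with a name, *Slit1*, had 79.4, 48.5 and 90.2 at E15 and 0, 6.49 and 5.49 in adult pools (17.4-fold).

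The receptors for semaphorins were represented by 3 plexins and 1 neuropilin. *Plxna3* had 1224, 1506 and 1536 at E15 compared with 581, 501 and 521 in adult plexus (2.66-fold), and *Plxna2* 870.1, 581 and 786 at E15 and 73.6, 116 and 129 in adult pools (7.01-fold). Both are plexins that signal for class 3 semaphorins with a neuropilin. *Nrp2*, the co-receptor that also binds vascular endothelial growth factors, had 949, 1289.8 and 1044 at E15 against 345, 378 and 380.4 in the adult (2.97-fold). *Plxnb3*, a plexin known from oligodendrocytes, had 2.46, 0 and 0.784 at E15 and 12.7, 24.7 and 0 in adult pools (10.7-fold higher in the adult). It rested on few counts and its pools overlapped at 0, with adult replicate 3 as low as the E15 pools. The difference was 5.58-fold without adult replicate 2, 16.3-fold without adult replicate 3, and 32.7-fold with a 95% interval of 5.40 to 1337 without E15 replicate 1. Its call was lost without E15 replicates 2 or 3 (log2 fold changes of -2.86 and -3.25) and without adult replicates 1 or 2 (-3.44 and -2.48). With all pools it was lost by limma-voom (-2.53), under total counts (-2.66) or totals without the 10 genes of highest mean count (-2.98), and with the replicate number as a block (-3.08). The 6 named oligodendrocyte markers of 7 had summed normalised counts of 7792, 3618 and 2053 in adult replicates 1 to 3, also lowest in replicate 3, and their part in *Plxnb3* was not tested.

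Among the 11 Eph receptors 10 were higher at E15, and the receptors for both ephrin classes were among them. *Epha3* had 485, 549.8 and 559 at E15 and 0, 3.90 and 0 in adult pools, its 3 adult counts all in replicate 2. The ratio was 391 (95% interval 134 to 1898), and at least 254-fold without that pool. *Epha5* had 422, 303 and 387 at E15 compared with 1.42, 3.90 and 0 in adult plexus (192-fold). Without adult replicate 2 its ratio was 531-fold with a 95% interval of 95.1 to 20972. *Ephb2*, a receptor of the B ephrins, had 1053, 1349 and 1359.8 at E15 against 11.3, 20.8 and 5.49 in the adult (98.0-fold). These 3 receptors had at most 20.8 normalised counts in any adult pool and at least 303 in any E15 pool.

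Others kept a clear adult level. *Epha7* had 1218, 1124 and 1106 at E15 and 89.2, 80.5 and 65.9 in adult pools (14.6-fold), and *Epha4*, which binds ephrins of both classes, 723, 449 and 518 at E15 against 62.3, 62.3 and 60.4 in the adult (9.11-fold). *Ephb3* had the smallest change of the receptors higher at E15, with 536, 778 and 681 at E15 and 280.4, 319 and 240.3 in adult pools (2.37-fold). Of the rest, *Epha2* (11.4-fold), *Epha8* (33.5-fold), *Ephb1* (29.0-fold) and *Ephb6* (3.58-fold), the last a receptor without kinase activity, were higher at E15 in every pool. Without adult replicate 2 the values were 57.4-fold with a 95% interval of 15.8 to 476 for *Epha8* and 50.1-fold for *Ephb1*. *Epha1* alone was higher in the adult, with 52.4, 48.5 and 47.8 at E15 compared with 161, 179 and 144 in adult plexus, 3.26-fold.

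The netrin receptors had the largest median change of the families with more than 1 gene, a log2 fold change of 6.24 over 5 genes. *Dcc*, the netrin receptor that mediates attraction, had 533, 287 and 389 at E15 against 0, 0 and 6.87 in the adult (168-fold). Its 5 adult counts all lay in replicate 3, so that it was at least 197-fold higher without that pool and 109.6-fold without replicate 2. The Unc5 receptors mediate repulsion. *Unc5c* had 1120.5, 1111 and 1065 at E15 and 31.1, 72.7 and 28.8 in adult pools (24.6-fold), with E15 pools that hardly differed. *Unc5b*, the member best known from endothelium, had 381, 617 and 569 at E15 against 0, 15.6 and 4.12 in the adult (75.8-fold). Without adult replicate 2 the ratio of *Unc5b* was 251-fold with a 95% interval of 85.7 to 1218. *Unc5d* had 242, 172 and 196 at E15 and 0, 5.19 and 0 in adult pools (105-fold, and at least 97.0-fold without that pool). *Unc5a* had 34.4, 51.6 and 58.8 at E15 against 1.42, 7.79 and 0 in the adult (14.8-fold). It differed by 69.5-fold with a 95% interval of 12.3 to 2761 without adult replicate 2 and by 9.85-fold without adult replicate 3.

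The Robo receptors were all higher at E15. *Robo1* had 647, 591 and 533 at E15 compared with 4.25, 51.9 and 0 in adult plexus (30.4-fold). Adult replicate 2 held 93.0% of its adult counts. Without that pool the ratio was 282-fold with a 95% interval of 96.3 to 1368, and with adult replicate 3 left out the fit gave 20.1-fold. *Robo2* had 388, 350.4 and 333 at E15 and 5.66, 15.6 and 0 in adult pools (48.6-fold, 120.0-fold without adult replicate 2 and 32.2-fold without adult replicate 3). *Robo4*, the member known from endothelium, had 275, 469.7 and 424 at E15 against 7.08, 14.3 and 1.37 in the adult (49.9-fold, 88.2-fold without adult replicate 2). *Robo3*, the divergent member needed for midline crossing and the neighbour of *Robo4* on chromosome 8, had 9.82, 6.93 and 18.0 at E15 against 2 adult counts, which gave a ratio of 12.8 (95% interval 3.33 to 109).

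**Figure D2:**
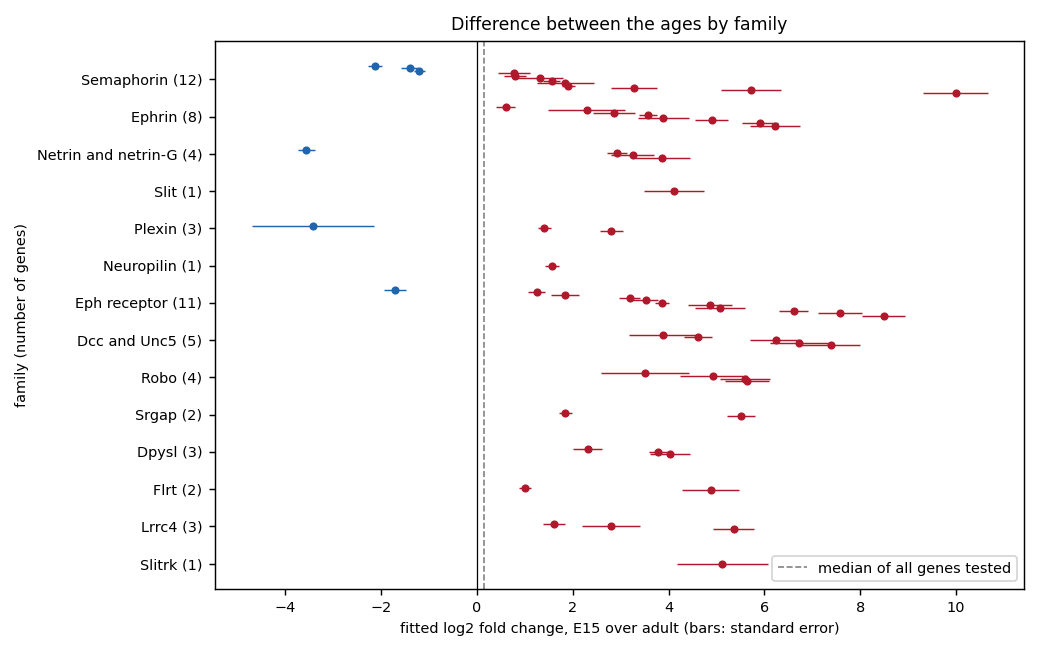
Fitted log2 fold change (E15 over adult) of each guidance gene by family, with bars for the standard error and a dashed line at the median of all genes tested, 0.14. Points left of 0 are higher in the adult; the point furthest right is *Sema5b*, whose adult counts were 0, so its fitted value depends on the prior count and is no estimate of size.

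The genes for proteins inside the receiving cell were also higher at E15. *Srgap1*, a GTPase-activating protein that binds Robo receptors, had 249, 281 and 236 at E15 against 4.25, 6.49 and 5.49 in the adult (45.9-fold), and *Srgap2*, which shapes membranes and spines, 1085, 1013 and 996 at E15 and 275, 318 and 264 in adult pools (3.61-fold). The Dpysl proteins, or collapsin response mediators, carry semaphorin signals to microtubules. *Dpysl5* had 2464, 2115 and 2651 at E15 and 152, 218 and 154 in adult pools (13.8-fold). *Dpysl3* had 825, 381 and 674 at E15 against 66.5, 28.6 and 20.6 in the adult (16.3-fold, and 24.9-fold without adult replicate 1, its highest adult pool). *Dpysl4* was 4.97-fold higher. All 3 Dpysl genes had their lowest E15 value in replicate 2.

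Adhesion proteins with leucine-rich repeats bind other guidance receptors across the cell gap. *Flrt3*, a partner of Unc5 receptors and latrophilins, had 1968, 1726 and 1660.2 at E15 compared with 758, 931 and 981 in adult plexus (2.01-fold). *Flrt1* had 147, 199 and 219.6 at E15 and 0, 14.3 and 4.12 in adult pools (29.4-fold). Without adult replicate 2 the ratio of *Flrt1* was 90.4-fold with a 95% interval of 30.8 to 439.6. *Lrrc4*, *Lrrc4b* and *Lrrc4c* encode proteins that carry the name netrin-G ligand, a name that does not make each of them a partner of a netrin-G. *Lrrc4b* had 792, 1653 and 1696 at E15 against 32.6, 53.2 and 13.7 in the adult (41.2-fold), *Lrrc4* differed by 3.06-fold, and *Lrrc4c*, the ligand of netrin-G1, by 6.95-fold (15.4-fold without adult replicate 2). The gene of netrin-G1 was thus higher in the adult and that of its ligand at E15. *Slitrk2*, of a family that acts in neurite growth and synapses, had 61.4, 17.7 and 28.2 at E15 against adult values of 0, 2.60 and 0, with a ratio of 38.9 (95% interval 10.6 to 325) that became 25.3-fold with a 95% interval of 6.69 to 214 without E15 replicate 1 and at least 16.9-fold if adult replicate 2 was left out.

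The 5 genes that only share letters with these families lay on both sides. *Lrrc43* was 9.14-fold higher at E15, *Lrrc46* 2.92-fold, *Lrrc48* 1.53-fold and *Lrrc49* 1.63-fold, and *Unc50* was 1.96-fold higher in the adult, a call that was lost with scaling by total counts. Some relatives stand in the authors' table under other names. *Ntn4*, a laminin-like netrin of basement membranes found there through a RefSeq accession, had 70.4, 57.8 and 52.5 at E15 and 1063, 1318 and 1007 in adult pools, 18.7-fold higher in the adult. *Ntn5* had 22.9, 37.0 and 35.3 at E15 against 2.83, 0 and 0 in the adult. Its ratio was 35.1 (95% interval 9.52 to 293), and with adult replicate 1 left out at least 15.9-fold. A gene that the table describes as semaphorin 6A had 2348, 2540.4 and 2147 at E15 compared with 22.7, 57.1 and 22.0 in adult plexus (68.2-fold, and 105-fold without adult replicate 2), and one it describes as Eph receptor A6 had 0, 6.16 and 6.27 at E15 and 0 in each adult pool, and was not called.

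Promoter sequence was examined because the members moved together with few exceptions. The 250 bases before the start of each gene were taken from RefSeq promoters (GRCr8) for the 48 guidance genes with a single start there, of 51 found. CpG-rich promoters, here those above 50% GC with an observed over expected CpG ratio above 0.6, made up 45.8% of the 48 (22 genes), 57.6% of 5600 genes of the authors' table and 29.1% of all 33469 promoters. All 22 belonged to the 44 genes higher at E15, and none to the 4 adult-higher genes. The GC and CpG ratio of those 4 were 44.8% and 0.891 (*Ntng1*), 53.6% and 0.575 (*Epha1*), 50.8% and 0.164 (*Plxnb3*) and 35.2% and 0 (*Sema3c*). *Ntng1* thus failed only the GC limit and *Epha1* lay just under the ratio limit, so this count depends on the limits chosen. The E-box CAGCTG, which reads the same on both strands, was found in 20.8% of the 48 promoters, 13.6% of the table's and 11.97% of all. The E-box CAGATG, searched on both strands and unable by its letters to overlap CAGCTG, was found in 8.33%, 10.1% and 13.96%, and within the 48 in 2 of the 44 genes higher at E15 and 2 of the 4 higher in the adult. CAGCTG was in 10 of the 44 and in none of the 4. The TATA motif TATAAA on both strands was in none of the 48, in 7.04% of the table's and in 12.9% of all promoters. These are matches of letters in a short window and not binding sites. Promoters of genes higher at E15 differed widely, for example with 3 CpG in *Flrt1* and 43 in *Efnb2*. As examples that do not show this range, the promoters of *Epha3* and *Ephb2*, far higher at E15, and of *Ntng1* and *Sema3c*, higher in the adult, are printed 5′ to 3′ on the gene's strand, with each CpG in capitals. They lie at chr11:14920426-14920675 (*Epha3*, minus strand, 17 CpG), chr5:154360425-154360674 (*Ephb2*, minus strand, 22 CpG), chr2:200515032-200515281 (*Ntng1*, minus strand, 11 CpG) and chr4:18699628-18699877 (*Sema3c*, minus strand, 0 CpG).
Epha3: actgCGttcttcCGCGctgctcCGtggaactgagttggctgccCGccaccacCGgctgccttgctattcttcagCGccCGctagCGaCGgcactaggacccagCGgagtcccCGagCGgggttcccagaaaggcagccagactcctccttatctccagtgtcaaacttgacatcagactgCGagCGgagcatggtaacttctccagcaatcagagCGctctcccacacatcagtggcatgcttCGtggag
Ephb2: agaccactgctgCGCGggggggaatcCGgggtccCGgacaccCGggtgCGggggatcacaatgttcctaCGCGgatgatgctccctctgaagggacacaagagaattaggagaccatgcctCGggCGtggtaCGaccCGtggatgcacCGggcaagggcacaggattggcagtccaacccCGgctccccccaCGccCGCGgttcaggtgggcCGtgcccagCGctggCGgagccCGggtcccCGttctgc
Ntng1: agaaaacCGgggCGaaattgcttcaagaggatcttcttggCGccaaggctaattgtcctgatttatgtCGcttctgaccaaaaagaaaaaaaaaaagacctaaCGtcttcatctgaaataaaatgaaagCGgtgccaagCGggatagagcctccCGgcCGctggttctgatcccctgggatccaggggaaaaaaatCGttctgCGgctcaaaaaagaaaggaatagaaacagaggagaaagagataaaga
Sema3c: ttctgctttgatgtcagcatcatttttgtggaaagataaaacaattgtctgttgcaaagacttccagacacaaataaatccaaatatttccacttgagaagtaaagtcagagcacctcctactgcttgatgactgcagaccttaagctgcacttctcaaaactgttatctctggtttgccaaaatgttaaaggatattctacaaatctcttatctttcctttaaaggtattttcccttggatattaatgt

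The E15 pools were also compared with each other, which the choice of members did not use. For each gene the log2 ratio of 1 pool to the mean of the other 2 pools of its age was taken, with a pseudocount of 0.5, over the 54 guidance genes with a mean of at least 50 normalised counts at E15. The medians were close to 0, at -0.11, 0.05 and 0.10 in E15 replicates 1 to 3. Replicate 1 was the lowest pool for 27 of the 54 genes (50%, against 46.9% of all genes at that count) and replicate 2 for 17 (31.5%, against 31.4%). Among all genes called higher at E15 at that count, replicate 1 was lowest for 56.9% and replicate 2 for 24.4%.

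Single genes went opposite ways. In E15 replicate 1 the lowest ratios were those of *Ntn3* (-1.48), *Sema6c* (-1.10), *Ntn1* and *Lrrc4b* (both -1.08) and *Sema3g* (-1.06), and the highest those of *Lrrc4c* (0.95), *Ephb1* (0.73), *Dcc* (0.66), *Dpysl3* (0.65) and *Ntng1* (0.60). In E15 replicate 2 *Lrrc4c* (-1.0), *Dpysl3* (-0.97), *Slit1* (-0.80), *Dcc* (-0.68) and *Ephb1* (-0.56) were lowest, 4 of the 5 genes that were highest in replicate 1. The highest there were *Ntn3* (0.60), *Sema6c* (0.52), *Ephb6* (0.44), *Robo4* (0.43) and *Lrrc4b* (0.41). In E15 replicate 3 the ends were nearer, from -0.32 (*Sema3a*), -0.28 (*Ntng1*), -0.27 (*Ephb1*), -0.21 (*Robo1*) and -0.18 (*Epha4*) to 0.67 (*Ntn1*), 0.60 (*Epha8*), 0.51 (*Ntn3*), 0.49 (*Slit1*) and 0.47 (*Lrrc4b*). A ratio of 1 pool to the other 2 makes the pools move against each other by construction, and 3 pools allow no test.

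Markers of developing neurons differed between the same pools. The 11 named of 16 listed were all lowest in E15 replicate 2, with median log2 ratios of 1.03, -1.67 and -0.06 in replicates 1 to 3 and summed normalised counts of 7274, 2946 and 5269. Their adult sums were 354, 1109 and 375, highest in adult replicate 2, and *Nhlh1*, an early neuronal transcription factor, was at 0 in each adult pool. Of the 11 markers, 9 were called higher at E15. The 5 named neural progenitor markers of 9 were all called higher at E15, and the 4 of them with enough counts had medians of 0.79, -1.19 and 0.26. The 9 named endothelial markers of 12, *Robo4* among them, ran the other way, at -0.37, 0.39 and -0.07, with sums of 9266 to 13581 at E15 and 1041 to 1467 in the adult, and all 9 were called higher at E15. Markers of mesenchyme and pericytes (10 of 11 named) were called higher at E15 for 8 genes and in the adult for 2, and the 3 named proliferation markers of 6 were all called higher at E15. Markers carry names only where the authors had called them between the ages, so nothing is read from these numbers of calls. Of the 10496 genes of the authors' table that were tested, 5276 were called higher at E15 and 4379 in the adult. What part these cell types had in the guidance genes was not tested.

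**Figure D3:**
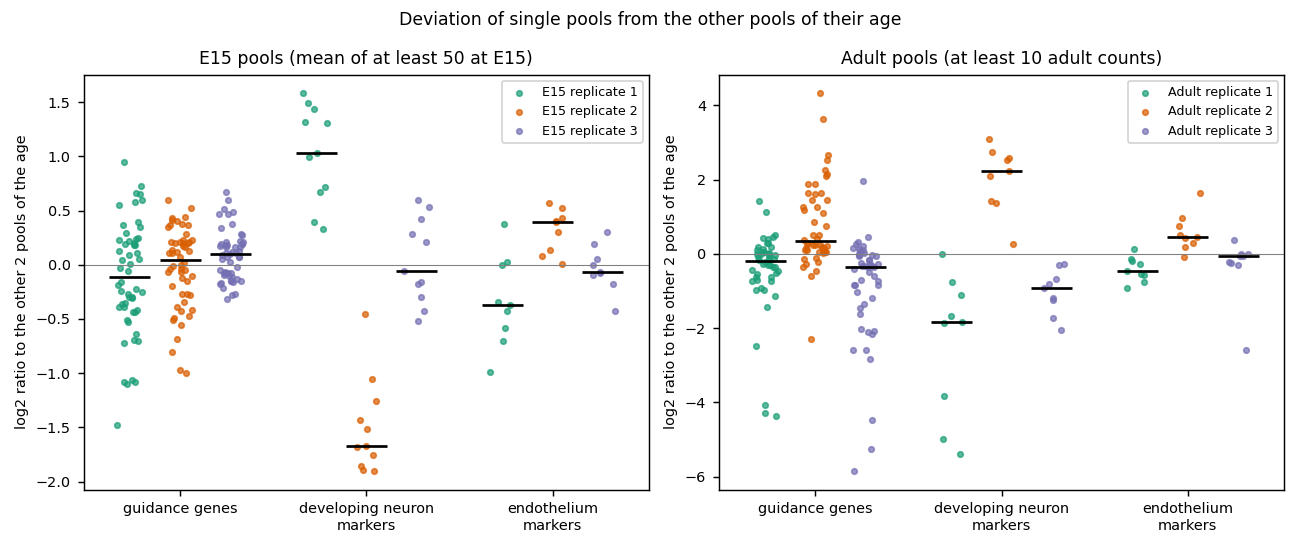
Log2 ratio of each pool to the mean of the other 2 pools of its age for guidance genes, developing neuron markers and endothelial markers at E15 (left; genes with a mean of at least 50 normalised counts) and in the adult (right; at least 10 adult counts); each point is a gene and bars are medians. The guidance genes centre near 0 in the E15 pools, where neuron markers sit at medians of 1.03, -1.67 and -0.06. In adult replicate 2 the guidance genes, the neuron markers and the endothelial markers are all high.

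In the adult, 12 of the 60 guidance genes had fewer than 10 counts in all 3 pools together and 16 had 0 counts in at least 1 pool, so the folds of these genes rest on few adult reads. Of the 54 genes higher at E15, 42 had at least 10 adult counts, and 28 of these were highest in adult replicate 2, 9 in replicate 1 and 5 in replicate 3. Among all 4778 genes called higher at E15 with at least 10 adult counts, 43.2% were highest in adult replicate 2. A gene of the 42 had a median of 42.5% of its adult counts in replicate 2, against 34.2% of all adult counts in that library. The share passed 50% for 17 genes, led by *Robo1* (93.0%, exact binomial 95% interval 80.9 to 98.5), *Sema3a* (91.7%, 61.5 to 99.8), *Unc5b* (80.0%, 51.9 to 95.7), *Flrt1* (78.6%, 49.2 to 95.3) and *Robo2* (75.0%, 47.6 to 92.7). These intervals take reads as units and cover counting error only, and the genes were picked for their high share. Shares were not computed for other genes called higher at E15, so whether they are particular to guidance genes was not tested. Adult replicate 2 also had the highest sums of several marker lists. They were 1041, 1467 and 1172 in replicates 1 to 3 for the endothelium, with 7 of 9 markers highest in replicate 2, 6171, 8427 and 6481 for 3 named erythroid markers of 5, and 16586, 17285 and 16813 for mesenchyme and pericytes, with 7 of 10 highest there. They were 328, 671 and 268 for 4 named adult neuron markers of 6 and 2110, 3711 and 1647 for 2 named astrocyte markers of 5, and 370, 674 and 628 for 3 named macrophage markers of 6. The part of these lists was not tested. Without this pool the fitted value of 22 guidance genes moved by more than 1.5-fold, against 6 without adult replicate 3, 2 without E15 replicate 1, 1 without adult replicate 1 and 0 without E15 replicate 2 or 3. Such moves were not counted over other genes. Of the 6 genes higher in the adult, *Sema3c*, *Sema4d*, *Epha1* and *Plxnb3* were also highest in adult replicate 2, and *Ntng1* and *Sema5a* in replicate 3.

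**Figure D4:**
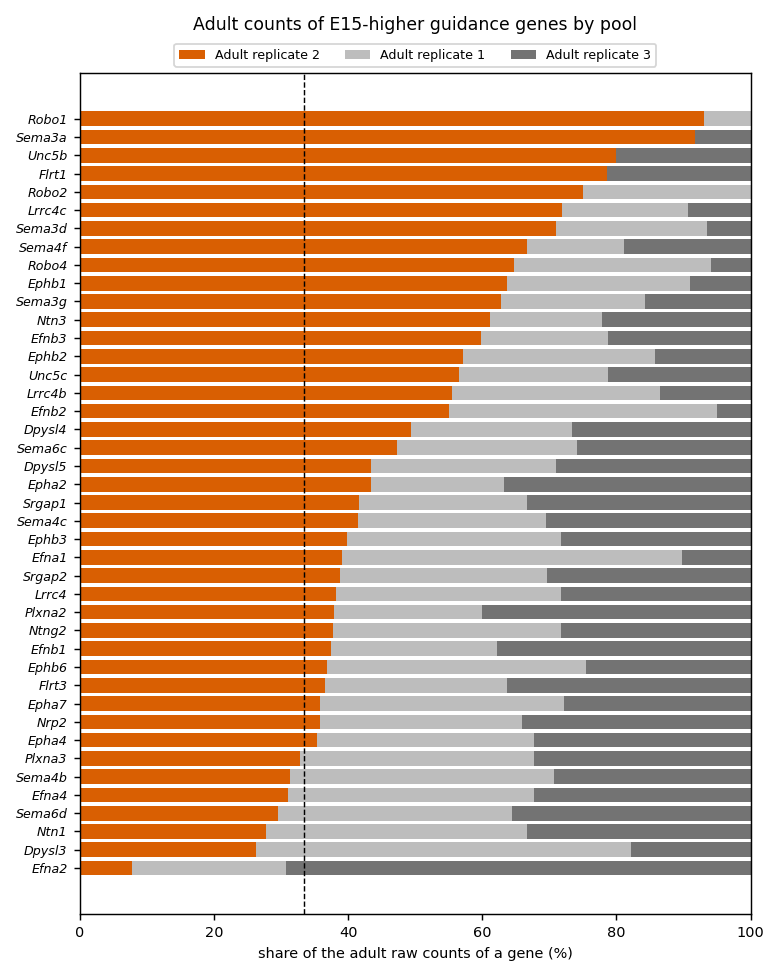
Share of each gene's adult raw counts that lay in each adult pool, for the 42 guidance genes higher at E15 with at least 10 adult counts, as stacked bars from 0 to 100%, with a dashed line at equal shares. Replicate 2 holds more than 50% for 17 genes, up to 93.0% for *Robo1*.

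Other genes of the guidance pathways, from a list of 136 of which 80 had names and could be tested, also lay on both sides. Of the 80, 50 were called higher at E15 and 25 in the adult, with a median log2 fold change of 1.15, and all carry names only because the authors had called them. Of the 10496 genes of the authors' table that were tested, 5276 were called higher at E15 and 4379 in the adult. Among the groups of the list, 4 and 1 of 5 netrin and repulsive guidance partners were called higher at E15 and in the adult, 11 and 4 of 17 semaphorin signalling genes, 8 and 4 of 12 ephrin signalling genes, 6 and 3 of 10 partners of Flrt, Slitrk and Lrrc4, and 14 and 8 of 23 other cues and receptors. *Pak3*, a kinase downstream of Rac and Cdc42, had the largest E15 difference, with 665, 317 and 389 at E15 against 0, 18.2 and 1.37 in the adult (66.4-fold). Without adult replicate 2 its ratio was 650.4-fold with a 95% interval of 117 to 25704. *Odz2*, a teneurin, had 379.8, 710.0 and 661 at E15 and 14.2, 18.2 and 0 in adult pools (53.1-fold, 84.2-fold without adult replicate 2). *Lphn2*, a latrophilin that binds teneurins and Flrt proteins, was 45.3-fold higher (80.4-fold without that pool). The atypical cadherin *Celsr3* was 32.6-fold higher, and 195-fold with a 95% interval of 34.8 to 7702 without that pool. *Crmp1*, a relative of the Dpysl genes, was 30.7-fold higher.

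Of the 5 largest differences in the adult, 2 were myelin inhibitors of axon growth. *Mag* had 0, 0 and 3.92 at E15 and 222, 59.7 and 15.1 in adult pools, 68.7-fold higher. Its E15 counts lay only in replicate 3, without which it was at least 81.6-fold higher, and without adult replicate 1 the ratio was 28.9-fold. *Omg* had 7.37, 3.08 and 0.784 at E15 against 90.6, 90.9 and 17.9 in the adult (17.4-fold, 34.3-fold without E15 replicate 1). Both were lowest in adult replicate 3, as were the oligodendrocyte markers, of which *Mag* is one, and the part of those cells was not tested. *Vav3*, an exchange factor that acts below Eph receptors, had 224, 154 and 123 at E15 and 4110.3, 4001 and 4080.4 in adult pools (24.3-fold). *Kalrn*, another exchange factor, was 5.78-fold higher and *Reln*, the secreted reelin, 5.77-fold, and the pools of the ages did not overlap in either.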

How the data were processed

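Libraries of 3 E15 pools and 3 adult pools of rat choroid plexus were compared, with groups and numbers from the labels. Raw counts per gene of Ensembl release 61 were deposited, which the authors made from reads of 100 bases, trimmed, mapped with Bowtie 0.12.7 where a read had a single place, and counted with HTSeq 0.4.7p4 (union option). Near-identical genes may therefore be undercounted. A second table deposited by the authors holds log2 fold changes, log2 abundances, p-values and adjusted p-values from edgeR 2.4.0 for the genes they called, and only its identifiers, names and descriptions were used. Names came from it, and for 374 genes, *Lrrc4c* among them, from RefSeq accessions it lists. The members and all lists were chosen with earlier results of these data known.

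Ages were compared over all genes with more than 10 counts in the 6 libraries with edgeR 4.0.16 (estimateDisp, glmQLFit, glmQLFTest) in R 4.3.3, TMM factors, a single term for age and Benjamini-Hochberg adjustment. The common dispersion of 0.0332 corresponds to a biological coefficient of variation of 18.2%, and the prior degrees of freedom were 5.25. In counts simulated over 15312 genes with the same dispersion of 0.033 for every gene, 170 of 200 changed genes and 8 unchanged genes were called. In the data the spread differs between genes and far more genes were called, so these are no error rates of this comparison. The genes named in the text are, within each family, those with the most counts, the largest change in each direction, another direction than most of the family, overlapping pools or no call, the 5 lowest and highest of each E15 pool and the 5 largest changes among the other pathway genes in each direction. Other members are given by their fold. The counts of 1 group of the pathway list are not reported here. Alternatives were other scalings and filters, DESeq2 1.42.0, limma-voom (limma 3.58.1), the exact test of edgeR at 1 common dispersion, a replicate block and leaving out each library. The replicate numbers did not pair the samples. Python 3.11.15 served for lists and figures, with scipy 1.17.1, pandas 2.3.3, matplotlib 3.10.9 and numpy 2.4.6.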

Additional observations from a re-analysis of the deposited data

How the results depend on the processing

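Every guidance gene kept its direction under every alternative in which it was tested, and 53 of the 60 also kept their side of the threshold in all of those. Stricter filters tested fewer of them, 57 with filterByExpr and 53 with a mean count above 100 at either age. Calls were lost in at least 1 alternative for *Sema4f*, *Sema3d*, *Sema4b*, *Efna3*, *Efna4* and *Plxnb3*, and *Sema6c* gained one. Of the 65 genes named by pattern, 57 were called higher at E15, and 53 to 58 were called with each library left out in turn. With the replicate number as a block, 56 were called higher at E15 and 6 in the adult, but the numbers marked no pairing: deviations of same-numbered libraries correlated at -0.01, -0.01 and -0.04. Over all genes, calls higher at E15 went from 5773 to 9799 with total counts only, and calls in the adult from 4879 to 2292, or to 3196 with totals taken without the 10 genes of highest count. In the adult, calls of the other pathway genes went from 25 to 13 with total counts only. The cause was not tested. With *Ntn4* and *Ntn5* added to the 65 genes, 58 were called higher at E15 and 8 in the adult. In the adult, 42 guidance genes had a mean under 100 normalised counts, and the fold of 24 genes moved by over 1.5 times when 1 library was left out, 22 of them without adult replicate 2.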
